A study of Homo sapiens with 9 samples.

Results

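GAMT, DAZAP1, RPS15 and APC2 are neighbouring genes near the short-arm end of human chromosome 19. The stretch described here is the 200 kb (kilobases) of chromosome 19 from 1350000 to 1550000 in build hg19, and its members are the γH2AX regions that the authors called there in 8 libraries. In all, 166 of 234983 called regions overlapped this window. Of these, 1 and 3 came from the 2 wild-type (WT) mock libraries, 2 and 1 from WT PMA, 44 and 34 from knockout (KO) mock, and 38 and 43 from KO PMA, for replicates 1 and 2 in turn. Regions were assigned to GAMT (1397091 to 1401569), DAZAP1 (1407584 to 1435722), RPS15 (1438363 to 1440492) and APC2 (1450148 to 1473243). No region overlapped more than 1 of the 4 genes, and 102 regions overlapped none. The locus was chosen by its covered length in KO against WT cells in these same libraries, so such values are given as a description, with no test.

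All libraries came from K562, an established line of human myelogenous leukaemia cells. Chromatin was precipitated with an antibody to γH2AX and sequenced (ChIP-seq). The 4 groups were WT mock, WT PMA, FANCL-KO mock and FANCL-KO PMA, with 2 libraries each, and PMA was given at 5 nM for 72 h. A ninth library, the input of WT mock cells, served as the control for every region list, so a difference in copy number between WT and KO cells or between treatments is not corrected. The labels do not say how many KO clones were used or whether replicates were separate cultures. Depth was 17.0 to 27.2 M (mega) tags in WT and 15.6 to 18.3 M in KO libraries, so the KO libraries were mostly the shallower ones. The tag threshold of a 500 bp window was 5.89 to 7.07 tags per 10 M in WT and 7.12 to 7.69 in KO libraries, so a KO window needed more tags per 10 M to be called. Between 1.39% and 4.69% of WT tags and between 3.42% and 7.96% of KO tags lay inside called regions, and the part of this share in the results below was not tested.

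H2AX is a variant of the core histone H2A. Kinases of the DNA damage response phosphorylate it at a serine near its end, and the phosphorylated form, γH2AX, spreads along the chromatin on either side of a break or a stalled replication fork. FANCL is the ubiquitin ligase of the Fanconi anaemia core complex, which marks FANCD2 and FANCI during repair of DNA crosslinks. PMA is a phorbol ester that activates protein kinase C and drives K562 cells towards a megakaryocyte-like state. The 4 genes have unrelated products. GAMT makes creatine from guanidinoacetate, DAZAP1 is an RNA-binding protein that acts in splicing and translation, RPS15 is a protein of the small ribosomal subunit, and APC2 is a relative of the tumour suppressor APC that binds β-catenin.

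The starts of DAZAP1, RPS15 and APC2 differed in whether γH2AX regions reached them, so the 250 bases before each start are shown. The sequences are from RefSeq (GRCh38.p14, plus strand, 5′ to 3′), and RefSeq coordinates were not compared with the hg19 regions. They lie at chr19:1407336-1407585 for DAZAP1, chr19:1438146-1438395 for RPS15 and chr19:1449871-1450120 for APC2. Of 2 entries for APC2, the one whose distance to the gene's end is closest to the hg19 span is shown. Capitals mark GC boxes (GGGCGG or its reverse complement CCGCCC) and CCAAT boxes (CCAAT or ATTGG).
DAZAP1: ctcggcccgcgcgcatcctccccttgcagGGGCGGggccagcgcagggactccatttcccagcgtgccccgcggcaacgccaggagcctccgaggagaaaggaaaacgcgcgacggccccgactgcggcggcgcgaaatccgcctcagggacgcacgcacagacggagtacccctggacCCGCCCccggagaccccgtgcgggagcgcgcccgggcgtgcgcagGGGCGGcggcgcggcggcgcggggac
RPS15: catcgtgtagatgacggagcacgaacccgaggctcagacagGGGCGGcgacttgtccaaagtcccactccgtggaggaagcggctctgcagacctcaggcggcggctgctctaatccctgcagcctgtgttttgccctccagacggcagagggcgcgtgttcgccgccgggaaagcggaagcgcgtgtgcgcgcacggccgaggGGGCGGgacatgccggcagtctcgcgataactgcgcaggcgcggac
APC2: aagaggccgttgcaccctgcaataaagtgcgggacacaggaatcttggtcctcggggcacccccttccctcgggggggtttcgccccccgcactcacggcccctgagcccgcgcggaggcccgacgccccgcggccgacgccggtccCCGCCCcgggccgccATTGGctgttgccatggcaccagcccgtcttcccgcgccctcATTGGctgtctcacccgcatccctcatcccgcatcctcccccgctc

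The start of DAZAP1 lay outside every region in all 8 libraries. The nearest region was 681 and 1875 bp away in KO PMA libraries, and 2090 and 2666 bp away in KO mock libraries, for replicates 1 and 2. It sat in a stretch of 2349 bp, from 1406903 to 1409252, that no library covered, while the gene body beyond it was covered in part in every KO library. Longer uncovered stretches lay outside the 4 genes, the longest from 1529772 to 1533072 (3300 bp), so such a stretch is not particular to this start. WT libraries held 1 to 3 regions each in the window, so their lack of a region here says little. The start of RPS15 was inside a region in KO PMA replicate 2 only, from 1438352 to 1438852, and 896 bp from one in replicate 1. In KO mock the nearest region to it was 4669 and 3312 bp away. The start of APC2 was inside a region in all 4 KO libraries, and the positions from 1449344 to 1450244 were covered in each of them. GAMT is transcribed towards lower coordinates, so its start is its upper end. That end was inside a region in KO PMA replicate 1, 239 bp from one in replicate 2, and 931 and 52 bp from one in KO mock.

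All 3 printed stretches are rich in CpG dinucleotides, with 40 in DAZAP1, 30 in RPS15 and 26 in APC2, where the median of 34943 RefSeq promoters is 11 per 250 bases. More CpGs than in 97.8% of promoters were counted for DAZAP1, than in 87.6% for RPS15 and than in 80.4% for APC2. GC boxes numbered 3 in DAZAP1, 2 in RPS15 and 1 in APC2, and 42.5% of all promoters hold at least 1 on either strand. APC2 had 2 CCAAT boxes, at positions -88 and -46 from its start, and DAZAP1 and RPS15 had none, where 32.0% of promoters hold one. None of the 3 held the letters TATAAA on either strand, which 10.8% of promoters hold. These matches are descriptions of letters and not of bound sites.

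In WT cells the window held almost no γH2AX region. In KO mock cells it held scattered short regions, and in KO PMA cells it was covered in long stretches. Covered length, in base pairs that lay within regions, was 0.5 and 1.5 kb in WT mock and 1 and 0.5 kb in WT PMA, for replicates 1 and 2. The KO mock libraries held 39.0 and 41.9 kb and the KO PMA libraries 135.0 and 125.7 kb. The group means were 1 ± 0.707 kb in WT mock, 0.75 ± 0.354 kb in WT PMA, 40.4 ± 2.03 kb in KO mock and 130.3 ± 6.56 kb in KO PMA (SD, n = 2 each). KO PMA regions thus spanned 67.5 and 62.8% of the window and KO mock regions 19.5 and 20.9%, and no 2 of the KO mock, KO PMA and WT ranges overlapped.

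**Figure D1:**
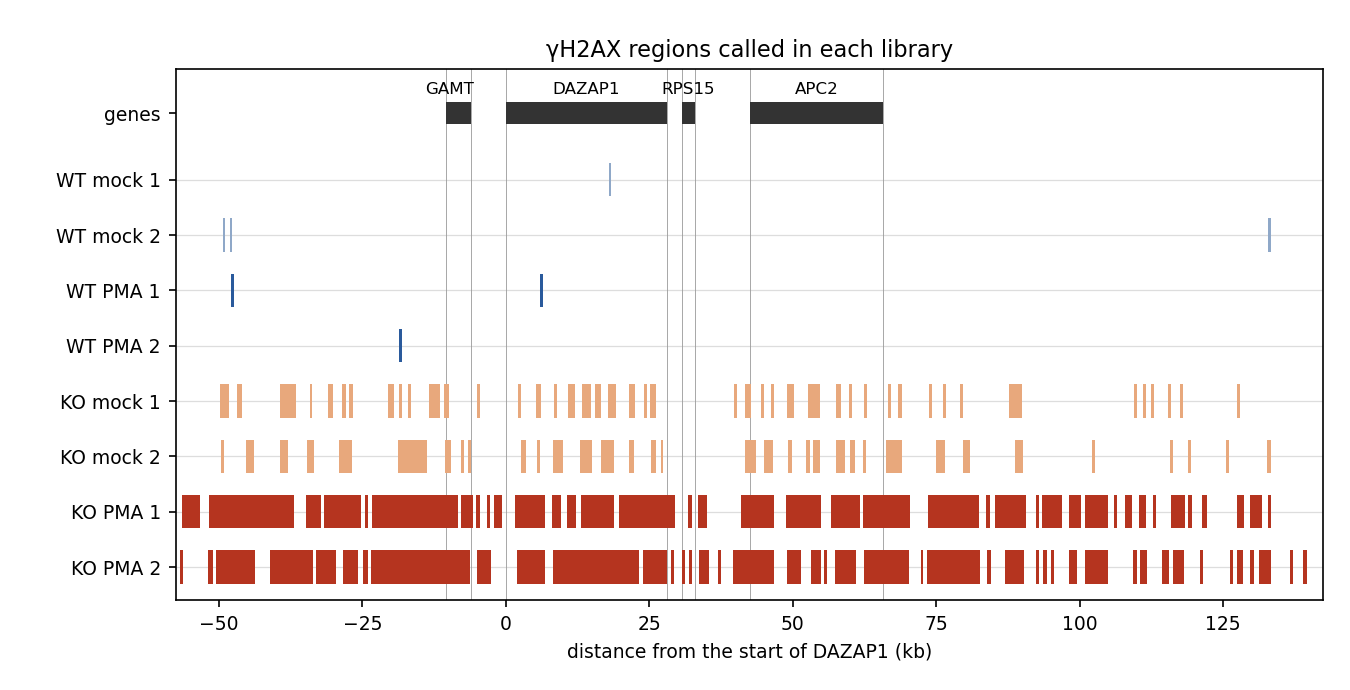
γH2AX regions called in each of the 8 libraries across the window, drawn to scale by their distance from the start of DAZAP1 (x axis, kb), with the spans of the 4 genes on top. Single regions of 0.5 kb stand in the WT rows and scattered regions in KO mock. KO PMA rows hold long and short regions, with gaps of up to 5.95 kb in replicate 1 and 4.68 kb in replicate 2.

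The 7 WT regions were each 500 bp long, the size of 1 calling window, and none was called in both replicates of a group. WT mock replicate 1 held its only region inside DAZAP1, from 1425469 to 1425969, at 3.69-fold over input in the authors' values. WT mock replicate 2 held regions from 1358214 to 1358714, from 1359414 to 1359914 and from 1540432 to 1540932, outside the 4 genes. WT PMA replicate 1 held 1 region in DAZAP1, from 1413525 to 1414025 (10.9-fold), and 1 from 1359707 to 1360207 (12.3-fold). WT PMA replicate 2 held 1, from 1388951 to 1389451. Together the WT regions covered 3.29 kb, of which 3.24 kb was also covered in both KO PMA libraries. Positions covered in both KO PMA libraries made up 54.0% of the window, so part of this overlap follows from their extent.

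In bins of 10 kb, both KO PMA libraries lay above both WT PMA libraries in 20 of 20 bins of the window, against 27.2% of the 38356 bins tested in the genome. Both KO mock libraries lay above both WT mock libraries in 17 of 20, against 19.4%. These are the contrasts that chose the locus, so the counts describe it and nothing is read from them. At the lower edge, the last bin outside the window (from 1340001) held 4.84 and 4.27 kb in KO PMA and the first inside held 7.26 and 4.19 kb. At the upper edge, the last bin inside held 0.5 and 2.30 kb in KO PMA and the next one outside 6.86 and 3.85 kb. Coverage thus ran on past the lower edge, while the upper edge lay at a little-covered bin with more coverage beyond it.

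GAMT, the smallest but one of the 4 genes at 4.48 kb, had the highest covered share in KO PMA cells when all deposited regions were counted. Regions covered 88.6 and 94.7% of it in KO PMA, 14.1 and 43.4% in KO mock, and none of it in the 4 WT libraries. The KO mock libraries stood far apart here, with an SD of 20.7 around a mean of 28.7%. In KO PMA the longest regions of the window reached into the gene. These ran from 1384176 to 1399323 in replicate 1 (15.1 kb, 3.97-fold over input) and from 1384076 to 1401330 in replicate 2 (17.3 kb, 3.87-fold). A second region of replicate 1, from 1399832 to 1401836, took in the start of the gene. The long regions extend from GAMT to lower coordinates, on the side where RefSeq's gene order places NDUFS7, a subunit of respiratory complex I. The mean share of GAMT, and which KO group had the higher mean, depended on which regions were counted. Taking as many regions from every library ranked them by their deposited score. The regions of 15.1 and 17.3 kb had scores of 15 and 12, and the one from 1399832 to 1401836 had 21. A region's rank thus did not follow its length. This choice gave 19.4 ± 27.4% in KO PMA and 23.1 ± 12.8% in KO mock (SD, n = 2 each). In KO PMA this mean was below those of DAZAP1 (56.1 ± 34.0%) and APC2 (63.2 ± 4.67%), with replicates of GAMT and DAZAP1 far apart. Regions of 4-fold or more gave 0% in KO PMA, where those of GAMT stood at 3.87- to 3.97-fold, and 11.2 ± 15.8% in KO mock.

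DAZAP1, with a span of 28.1 kb, held the most γH2AX of the 4 genes in kilobases. Its covered length was 22.6 and 24.0 kb in KO PMA and 9.94 and 9.63 kb in KO mock. It was 0.5 kb in replicate 1 of each WT group and 0 in replicate 2. As a share of the gene this was 82.7 ± 3.58% in KO PMA and 34.8 ± 0.787% in KO mock (SD, n = 2 each). KO mock coverage was split over 10 and 8 regions, the longest of 1627 and 2303 bp. KO PMA coverage came in 5 and 3 regions, the longest of 9861 and 14971 bp, so the number of regions was lower where the covered length was higher. The latter ran from 1415739 to 1430710 at 3.92-fold over input. At 4-fold or more DAZAP1 was covered at 35.6 ± 29.5% in KO PMA and 16.9 ± 4.94% in KO mock (SD, n = 2 each).

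RPS15, at 2.13 kb the shortest of the 4, was the least covered. No region touched it in the KO mock libraries or in any WT library. In KO PMA it held 0.733 and 0.989 kb, which is 34.4 and 46.5% of its span, in 1 region of 733 bp and 2 regions of 500 bp, each at 4.07-fold over input. The gap between DAZAP1 and RPS15 was covered at 51.2 and 24.2% in KO PMA and was not covered in KO mock. A region of 500 bp is the caller's smallest unit, so covered shares of a gene this short move in large steps, and RPS15 had no covered base once regions under 1000 bp were left out or as many regions were taken from every library.

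APC2, with a span of 23.1 kb, was covered at 81.8 and 68.6% in KO PMA and at 28.6 and 35.2% in KO mock, and at 0 in the 4 WT libraries. Its means were 75.2 ± 9.29% and 31.9 ± 4.65% (SD, n = 2 each). With regions of 4-fold or more the means were 4.87 ± 6.89% in KO PMA and 10.9 ± 4.72% in KO mock. At 6-fold or more they were 1.08 ± 1.53% and 3.86 ± 2.39%. The means thus changed order, but their spreads overlapped, so no order of the KO groups is read from them. The KO PMA value at 6-fold came from a region of 500 bp (1463017 to 1463517) over 0.9 input tags. In KO PMA the regions of APC2 numbered 4 and 6, and the longest ran past its upper end, from 1469792 to 1477957 in replicate 1 and from 1469982 to 1477774 in replicate 2. The positions from 1454348 to 1456383, inside the gene, were covered in no library. The region of APC2 with the highest fold in KO mock replicate 1 (1452037 to 1452537) reached 19.8-fold, over 1 scaled input tag, so its fold rests on very few tags.

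**Figure D2:**
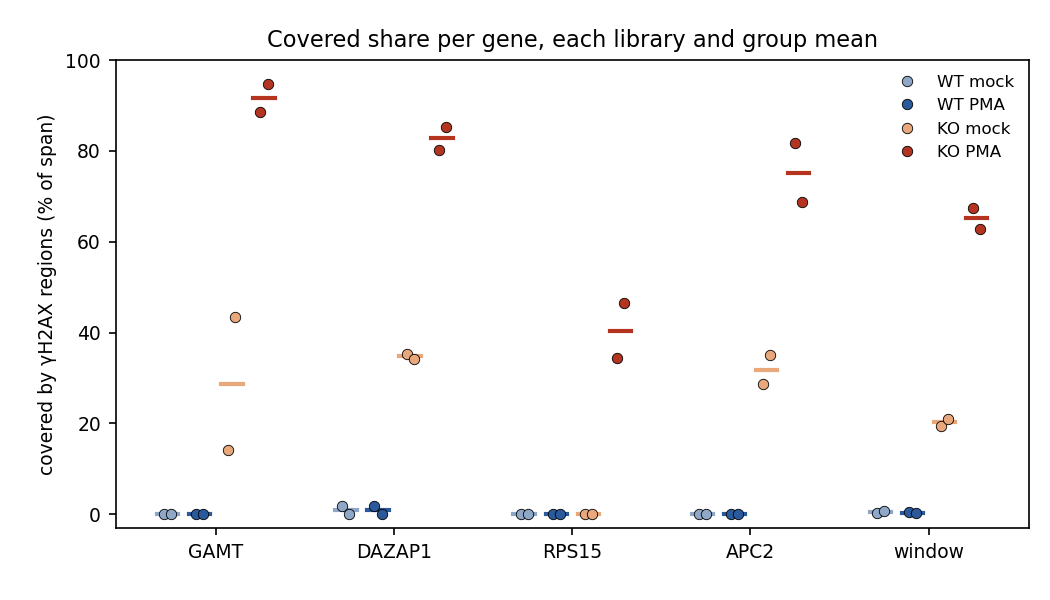
Share of each gene's span, and of the whole 200 kb window, inside γH2AX regions (y axis, %), for each library (points) and as the group mean (lines). KO PMA libraries stand highest for every gene, and RPS15 lies at 0 in KO mock and in both WT groups.

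The 4 genes make up 28.9% of the window. Of its covered length they held 44.0 and 47.0% in the KO mock libraries, and 34.2 and 35.9% in the KO PMA libraries. Inside the genes 29.7 and 34.0% of positions were covered in KO mock, against 15.4 and 15.6% of the rest of the window. Inside and outside the 4 genes the KO PMA shares were 79.8 and 77.9% and 62.5 and 56.7%. Other genes of the window were not annotated here, so the rest of the window does not stand for sequence between genes. The flank below GAMT was covered at 85.8 and 75.2% in KO PMA, close to the level of the genes, and the flank above APC2 at 53.5 and 48.1%. In KO mock the same flanks stood at 26.0 and 25.4% and at 10.1 and 12.3%.

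KO PMA and KO mock libraries had like numbers of regions in the window, and the regions of KO PMA were longer. The median length was 639 and 1005 bp in the mock and 2058 and 1263 bp in the PMA libraries. Regions at the 500 bp minimum made up 45.5 and 29.4% of those in mock cells and 15.8 and 23.3% after PMA. KO mock had 0 and 1 regions of 5 kb or more and KO PMA had 12 and 7, and the longest spanned 2.80 and 5.13 kb and 15.1 and 17.3 kb. In the whole lists, regions of 5 kb or more numbered 42 of 24773 and 47 of 24340 in KO mock. They numbered 667 of 42896 and 394 of 37893 in KO PMA, so long regions were more frequent across these libraries and not only at the locus. Gaps between neighbouring regions had a median of 1966 and 3029 bp before and 1147 and 1378 bp after PMA. The longest region of KO PMA replicate 2 was the sixth longest of that library (rank 6 of 37893), and that of replicate 1 had rank 28 of 42896.

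**Figure D3:**
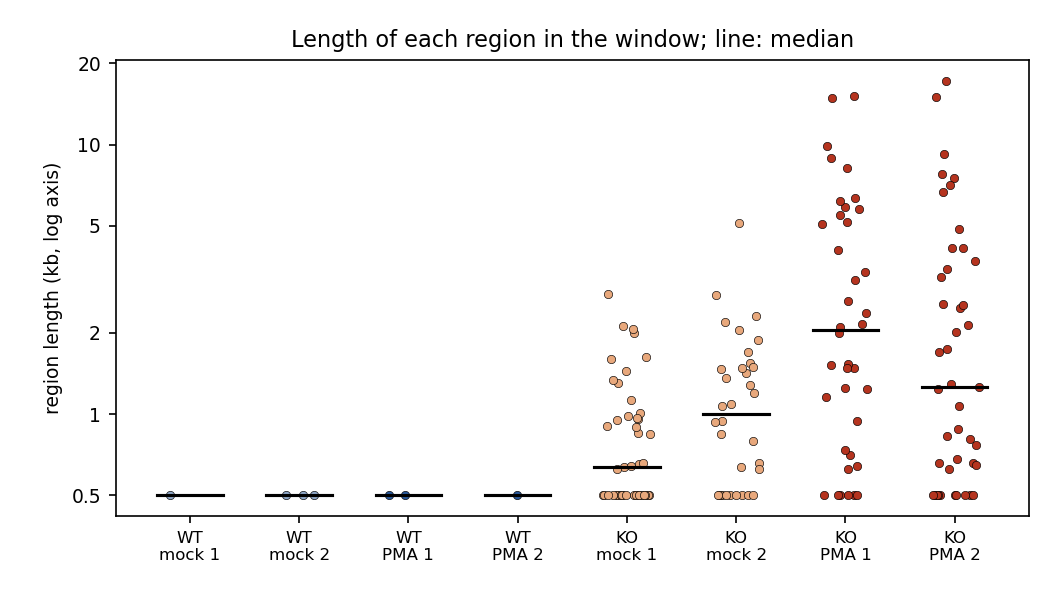
Length of each γH2AX region that overlaps the window (y axis, kb, log axis) by library, with the median as a line. All 7 WT regions lie at 0.5 kb, and regions above 10 kb appear only in the KO PMA libraries.

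The median fold of the regions over input, in the authors' values, was 3.91 and 3.63 in the KO mock and 3.97 and 4.22 in the KO PMA libraries. The medians of the whole lists were 4.17 and 4.37, and 4.07 and 4.26, so the median of the locus was below that of its library in each KO library. The fold of the summed tags, which weights long regions more, was 3.68 and 3.53 in KO mock at the locus, where all regions had 3.60 and 3.68. After PMA it was 3.89 and 3.88 at the locus and 3.65 and 3.82 in all regions, so it lay above its library in 3 of the 4 KO libraries. At least 6-fold was reached by 6 of 44 and 1 of 34 regions without PMA and by 3 of 38 and 6 of 43 in KO PMA. Tag density inside the regions was 18.04 and 19.4 tags per 10 M and kb in KO mock, where all regions of these libraries had 19.5 and 20.8. In KO PMA it was 23.3 and 22.4, where all regions had 18.7 and 19.3. Counting regions of 6-fold or more alone, the window held 0.5 kb in WT mock, 0.75 kb in WT PMA, 2.22 kb in KO mock and 3.70 kb in KO PMA.

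KO libraries shared positions within the window. KO PMA replicates had 108.0 kb in common, a Jaccard index (shared over combined length) of 0.707, and KO mock replicates 18.7 kb, an index of 0.300. Coverage of KO mock lay largely inside that of KO PMA. Of KO mock replicate 1, 94.0 and 95.5% was also covered in KO PMA replicates 1 and 2, and of replicate 2, 96.9 and 91.8%. Where KO PMA covers 62.8 to 67.5% of the window, much of this overlap follows from its extent. All 4 KO libraries covered 17.9 kb, which is 96.2% of what both KO mock libraries covered, and the longest such stretch lay in DAZAP1 from 1420878 to 1422505. Both KO PMA libraries and neither KO mock library covered 52.5 kb. No library covered 46.1 kb, in pieces of at most 3.30 kb.

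The effect of PMA was tested within each genotype, since the choice of the locus rested on KO against WT. The KO libraries took part in that choice as well, so these tests are not fully independent of it. In limma over all bins of 100 kb, the bin from 1400001 to 1500000, which holds most of the 4 genes, rose with PMA in KO cells. The KO mock libraries held 23.1 and 26.2 kb there, and the KO PMA libraries 71.0 and 68.9 kb (log2 difference 1.47, SE 0.289, adjusted p = 0.0255). Of 9552 bins tested, 13.1% rose in this comparison and 5.34% fell. Leaving out any of the 4 KO libraries ended the call, with adjusted p from 0.0987 to 0.122, and so did a pseudocount of 200 bp in place of 1000 (adjusted p = 0.322) and regions of 4-fold or more (log2 difference 1.21, adjusted p = 0.0907). With regions of 6-fold or more the difference itself was near 0 (log2 0.029, adjusted p = 1).

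In WT cells the same bin held 0.5 and 0 kb in mock and 0.5 and 0 kb in PMA libraries (log2 difference 0, SE 0.289, adjusted p = 1 in limma). With 1 region or none per library, this value says little about a PMA effect in WT cells. Genome-wide, 32.1% of bins rose with PMA in WT cells and 2.31% fell. The response of KO cells minus that of WT cells was not tested, because it is made of the genotype contrasts that chose the locus.

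In bins of 10 kb, 15 of the 20 bins of the window rose with PMA in KO cells and none fell (limma, adjusted p below 0.05), against 11.6% of the 38356 bins tested that rose and 2.67% that fell. Both KO PMA libraries lay above both KO mock libraries in 19 of 20 bins, against 29.5% of those tested. The 20 differences had a median of 1.55 on the log2 scale, where the median of all tested bins was 0.43. The largest lay from 1500001 to 1510000, above APC2, with 0 and 0.276 kb in the mock and 7.41 and 4.49 kb in the PMA libraries (log2 3.33, SE 0.318, adjusted p = 0.00306). The bin from 1430001 to 1440000, with the end of DAZAP1 and most of RPS15, held 1.55 and 1.30 kb and 7.81 and 6.49 kb (log2 1.99, SE 0.161, adjusted p = 0.00168).

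The bin from 1420001 to 1430000, inside DAZAP1, was the most covered one in both KO mock libraries, at 5.12 and 5.29 kb. With 8.64 and 10 kb in KO PMA it did not pass the test (log2 0.78, SE 0.346, adjusted p = 0.256 in limma), and its KO PMA coverage is near the full width of a bin. The WT mock libraries held 0.5 and 0 kb in this bin, and that gap between replicates raises the SE, which the fit shares over all groups. The missing call therefore does not rest on the KO libraries alone. A bin from 1460001 to 1470000, inside APC2, did not pass either, at 3.72 and 4.48 kb in mock and 7.83 and 5.97 kb in PMA libraries (log2 0.68, SE 0.186, adjusted p = 0.0826). In WT cells 0 of the 20 bins passed in limma in either direction, and 0 had an unadjusted p below 0.05. However, 14 of the 20 were at 0 in all 4 WT libraries and entered the test through the KO libraries alone, so their difference was 0 by construction and the count does not bear on a PMA effect in WT cells. Of all tested bins, 15.6% rose with PMA in WT cells and 1.92% fell. These zeros also lower the spread that the fit shares over all groups. With the 4 KO libraries alone in the fit, 12 of the 20 bins rose. Without KO PMA replicate 1 the number was 7, and without replicate 2 it was 9. With each library centred on the median of its tested bins 5 of the 20 rose and 1189 bins rose and 5843 fell in all, where the uncentred fit had 4456 and 1023. Centred on the mean, 6 of the 20 rose, with 1537 and 1260 in all. Regions of 4-fold or more left 4 bins that rose and regions of 6-fold or more left 0.

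**Figure D4:**
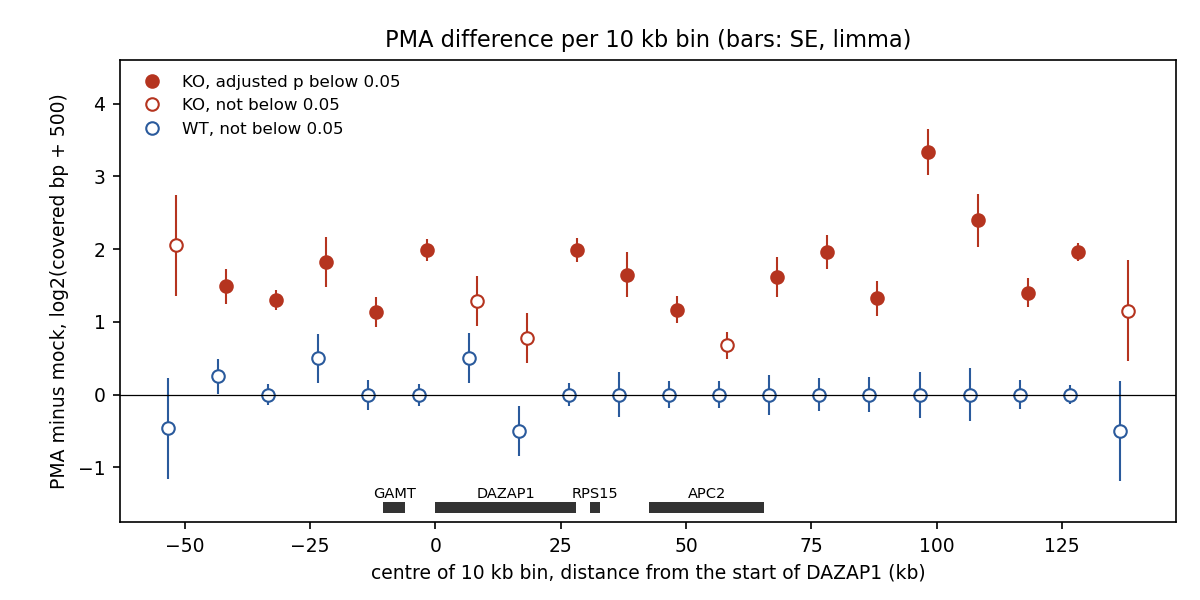
Difference between PMA and mock libraries in each 10 kb bin of the window, as log2(covered bp + 500) with its SE from limma (y axis), by distance from the start of DAZAP1 (x axis, kb). KO differences lie between 0.68 and 3.33, with filled points for the 15 bins that passed, and WT differences lie between -0.50 and 0.50.

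Covered length in the window was 3.22-fold larger in KO PMA than in KO mock, as a ratio of group means. It was 2.47-fold larger in the 4 genes and 3.85-fold larger in the rest of the window. These 2 ratios have different upper bounds, since coverage cannot pass the full span. In KO mock the genes were already covered at a mean of 31.9% and the rest at 15.4 and 15.6%. The ratios therefore do not show a smaller PMA effect inside the genes. The ratio was 3.31 for the whole of chromosome 19 and 2.23 for chromosomes 1 to 22 and X. The ratio of the locus was thus near that of its chromosome, and the share of tags inside regions was also larger in KO PMA (6.69 and 7.96%) than in KO mock libraries (3.42 and 3.67%).

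The neighbours of the central bin were covered in a like manner. The bins from 1300001 and from 1500001 lie partly inside the window, and the first holds part of GAMT, so they are not separate from the locus. In KO PMA the bin with most of the 4 genes held 69.9 ± 1.44 kb, and the 4 bins of 100 kb below it, from 1000001 to 1400000, held means of 65.2 to 71.7 kb. Towards higher coordinates the means were 52.8 and 55.3 kb in the next 2 bins and 18.7 ± 0.503 kb in the bin from 1700001 to 1800000, and 60.1 ± 3.80 kb in the one after that. In KO mock the central bin held 24.7 ± 2.16 kb, the bin from 1100001 held 24.9 ± 3.99 kb, and the 2 bins that flank the central one held 16.9 ± 0.980 and 13.7 ± 0.676 kb (SD, n = 2 each). Among bins of the whole genome the central bin ranked 45 and 40 in the KO mock libraries and 14 and 6 in the KO PMA libraries. On chromosome 19 the ranks were 1 and 2, and 7 and 2.

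**Figure D5:**
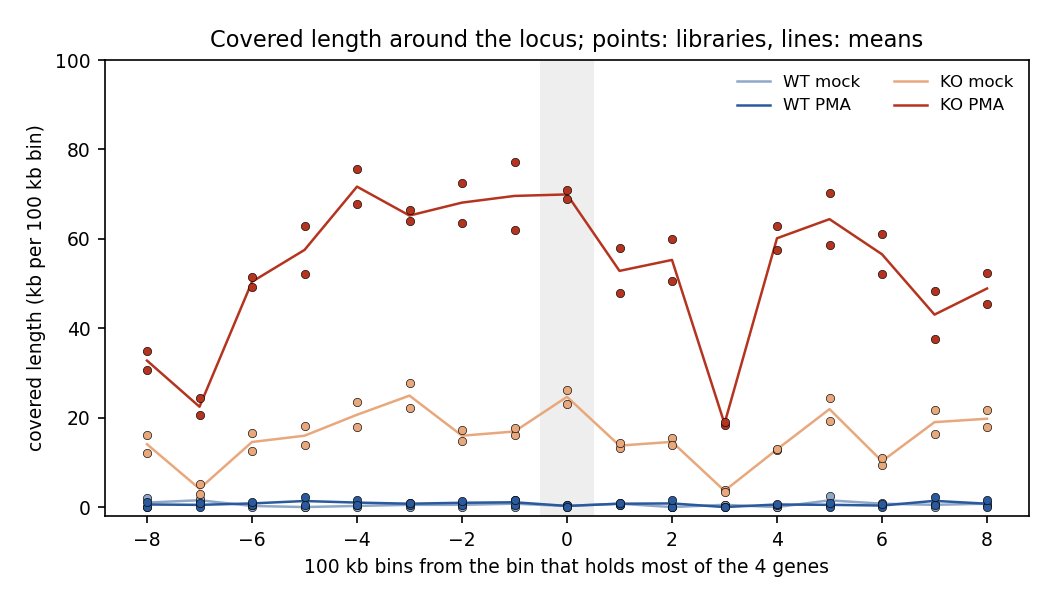
Covered length in 100 kb bins of chromosome 19 (y axis, kb) at distances of up to 8 bins from the bin that holds most of the 4 genes (shaded), with points for libraries and lines for group means. KO PMA libraries stay between 18.3 and 77.1 kb across these bins and WT libraries at 2.5 kb or less.

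The pattern of the central bin over the 8 libraries was shared by many bins. Of 9552 bins, 640 other bins had a Pearson correlation of at least 0.9 with it on the scale of log2(covered bp + 1000), and 175 of them lay on chromosome 19. With the central bin counted, this was 6.71% of all tested bins and 46.4% of those on chromosome 19. The points are 8 libraries of 4 groups, so this likeness is a description of group differences. The 5 bins most like it, at most 1 per 10 Mb, included 3 on chromosome 19, from 5500001, 39600001 and 55700001. The others were on chromosome 14 from 105300001 and on chromosome 11 from 67200001, with correlations from 0.991 to 0.996 over all 5. That on chromosome 11 held 8.99 and 12.3 kb in KO mock libraries, 47.6 and 38.5 kb in KO PMA libraries, and 0.5 kb or less in each WT library. On chromosome 19 from 39600001, KO mock held 6.95 and 7.94 kb and KO PMA 17.5 and 12.2 kb. The bin with the highest correlation, from 5500001, held only 2.76 and 2.40 kb in KO mock and 4.555 and 4.30 kb in KO PMA. The central bin held 71.0 and 68.9 kb in KO PMA, so a high correlation did not mean a like covered length.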

How the data were processed

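γH2AX was measured by ChIP-seq in 8 libraries. CASAVA 1.4, BWA, HOMER and build hg19 are named in the submitters' processing notes. Per the file headers, HOMER was run by the authors on every library with the WT mock input as control: windows of 500 bp past a tag threshold (p = 0.001), at least 2-fold over input (p = 0.0001), at most 1 tag per bp, joined into longer regions. The deposited signal is a region's tags per 10 M tags. The authors deposited unscaled tag counts in 5 libraries and tags scaled to the input's depth in 3. The deposited fold, score and p-value of each region are HOMER's own, and the fold is the ratio of region to input tags at one depth.

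Regions of a library were merged and covered base pairs counted per gene, window and bin with Python 3.11.15 (numpy 2.4.6, pandas 2.3.3). The test of bins that 2 or more libraries covered was limma 3.58.1 (R 4.3.3) with a trend of variance on mean, 4 groups in 1 fit, Benjamini-Hochberg adjustment over all bins and a two-sided threshold of 0.05. Values were log2(covered bp + 500) for 10 kb and log2(covered bp + 1000) for 100 kb bins, computed here from the deposited regions. This scale understates changes where few bases are covered, and adjacent bins share regions. The p-values measure the spread between libraries, which may be technical. The fit was also run on simulated normal values, raised above those of the data and not made to hold bins at 0 in a whole group. That run does not bear on such bins. Genes named were the 4 members and RefSeq's neighbour NDUFS7. Bins named as most like the locus were the 5 with the highest correlation, at most 1 per 10 Mb and none within 1 Mb of it. The members and lists were chosen with earlier results of these data known. Group and replicate came from sample titles. Alternatives were stricter or longer regions, 1 common tag threshold, equal numbers of regions, centring, pseudocounts, bin filters, no trend, a replicate block and leaving out each library. Equal numbers were taken from the highest deposited score downwards. The mean centring and the fit of KO libraries alone were added after seeing the data.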

Additional observations from a re-analysis of the deposited data

How the results depend on the processing

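Mean covered length of the window stayed larger in KO than in WT groups under each choice of regions tried, with other lengths. KO against WT chose the locus in these same libraries, so this order is a description and lends no support to a genotype difference. Regions of 4-fold or more gave 13.6 kb in KO mock and 49.1 kb in KO PMA, with 7.78 and 12.002 kb in the 4 genes and a longest region of 1.91 and 10.8 kb. Regions of 6-fold or more gave 2.22 and 3.70 kb, 0.891 and 1.01 kb in the genes, and a longest region of 0.969 and 1.39 kb. Regions of 1000 bp or more gave 24.9 and 121.2 kb, 11.1 and 44.5 kb in the genes, and 0 in both WT groups. With 1 common tag threshold KO mock held 38.2 kb and WT PMA 0. Taking as many regions from every library gave 29.9 and 81.0 kb, 15.3 and 31.3 kb in the genes, a longest KO PMA region of 9.56 kb, and 0 in WT PMA. Single libraries spanned 0.5 to 1.5 kb in WT mock, 0.5 to 1 kb in WT PMA, 39.0 to 41.9 kb in KO mock and 125.7 to 135.0 kb in KO PMA.

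Of the 20 bins of 10 kb, 15 rose with PMA in KO cells in limma. This number was 4 with regions of 4-fold or more (1 bin fell), 0 at 6-fold, where 7 bins could be tested, and 8 with as many regions from every library (1 bin fell). It was 5 with median centring, 6 with mean centring, and 7 to 16 when 1 library was left out. In WT cells the count was 8 lower with median centring, which shifts the difference of every bin by the same amount (locus median -1), also of the 14 bins without a WT region, so these are not losses of coverage. Leaving out 1 library gave 0 to 1, and the other settings 0. The log2 difference of the central 100 kb bin in KO cells was 1.21 with regions of 4-fold or more (adjusted p = 0.0907), 0.029 at 6-fold (adjusted p = 1) and 1.499 with a pseudocount of 200 bp (adjusted p = 0.322). It was 1.38 to 1.56 without 1 library, and the call ended without any of the 4 KO libraries. Mean centring gave 1.12 (adjusted p = 0.0392), with 1034 bins of 100 kb higher and 913 lower in all, against 1252 and 510. Same-numbered libraries did not deviate together in most pairs of groups (correlations of -0.0275 to 0.0579 over 10 kb and -0.0585 to 0.164 over 100 kb bins, the highest between WT mock and WT PMA). For KO mock and KO PMA they were -0.000227 and -0.0115, and the numbers were not taken to pair the libraries. With a replicate block 13 of the 20 bins passed, and the central bin kept 1.47 (adjusted p = 0.0346). The mean share of GAMT was lower in KO PMA than in KO mock with regions of 4-fold or more and with as many regions from every library. That of APC2 was lower at 4-fold and at 6-fold. The spreads overlapped in these settings, so no order of the KO groups is read from them.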
